A study of Mus musculus with 15 samples.

Results

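The tricarboxylic acid cycle enzymes described here are 9 nuclear genes, Cs, Idh2, Idh3a, Ogdh, Suclg1, Sdha, Sdhb, Fh1 and Mdh2, taken by symbol from a table of 24421 mouse gene symbols, and all 9 were found and passed the filter on low counts. RNA was measured in kidneys of wild-type mice on day 14 after surgery. Unilateral ureteral obstruction (UUO) ties the ureter of a single kidney and injures its tubules. The 3 groups were sham surgery with the normal diet (sham, n = 3), obstruction with the normal diet (UUO, n = 6) and obstruction with a Si-based diet (UUO_Si, n = 6). All animals were of the WT genotype, no sham group received the Si-based diet, and the sources used here give no age, sex or strain. The tissue was labelled kidney with no cells sorted in the protocols, so a fall in a transcript could come from fewer cells of a type or from less RNA per cell, which cannot be told apart in bulk RNA. The series asked what the oral silicon agent does to renal mRNA.

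The cycle runs in the mitochondrial matrix. Acetyl groups from fatty acids, pyruvate and amino acids enter as citrate and are oxidised stepwise back to oxaloacetate, and the electrons released pass as NADH, or through succinate dehydrogenase, to the respiratory chain. Proximal tubule cells, which make up much of the renal cortex, are rich in mitochondria and draw their ATP for solute uptake mainly from this route. Members act in order as follows. Cs makes citrate, Idh3a is the catalytic subunit of the NAD-dependent isocitrate dehydrogenase, and Idh2 is the NADP-dependent enzyme that yields NADPH in the matrix. Ogdh is the decarboxylating subunit of the 2-oxoglutarate dehydrogenase complex and Suclg1 the alpha subunit shared by both succinyl-CoA ligases. Sdha and Sdhb are the flavoprotein and iron-sulphur subunits of succinate dehydrogenase (complex II), Fh1 hydrates fumarate, and Mdh2 oxidises malate.

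Total counts were 5526642 to 8308121 for the sham libraries, 11151020 to 15422610 for UUO and 7754724 to 11465940 for the UUO_Si group, and the members had 290 to 4660 counts per library. Kidney markers were present: summed levels of 14 proximal tubule markers were 19551 to 22439 CPM in sham, 1026 to 2018 CPM in UUO and 768 to 2265 CPM in UUO_Si (CPM, counts per 1000000 counts of the scaled library size). 4 libraries stood apart, with counts in 791 to 1264 of 1463 olfactory and vomeronasal receptor genes against 84 to 139 in the other 11. They are called receptor-gene libraries below: replicate 6 of UUO_Si, replicates 5 and 6 of UUO, and the third sham replicate. The sample codes of UUO replicates 5 and 6 and of UUO_Si replicate 6 belonged to other series (RM6 and RM7) than those of the remaining obstructed libraries (RM3 and RM4), and the sources used here do not say what these codes stand for. All sham libraries carried a code of their own (RM1), so code series and operation cannot be told apart. RM3 and RM6 occurred only in UUO, and RM4 and RM7 only in UUO_Si, so code series and diet cannot be told apart either.

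All 9 members fell in the obstructed kidney. The falls ran from 1.29-fold for Cs to 3.10-fold for Idh2, with a median log2 fold change of -1.19 against -0.04 over all 16752 genes tested. All 9 passed edgeR's quasi-likelihood test at an adjusted p below 0.05, whereas 26.4% of all genes tested were lower by this rule. For every member each of the 6 UUO libraries lay below each of the 3 sham libraries, which held for 22.3% of all genes tested. Cs fell least and Idh2 most.

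**Figure D1:**
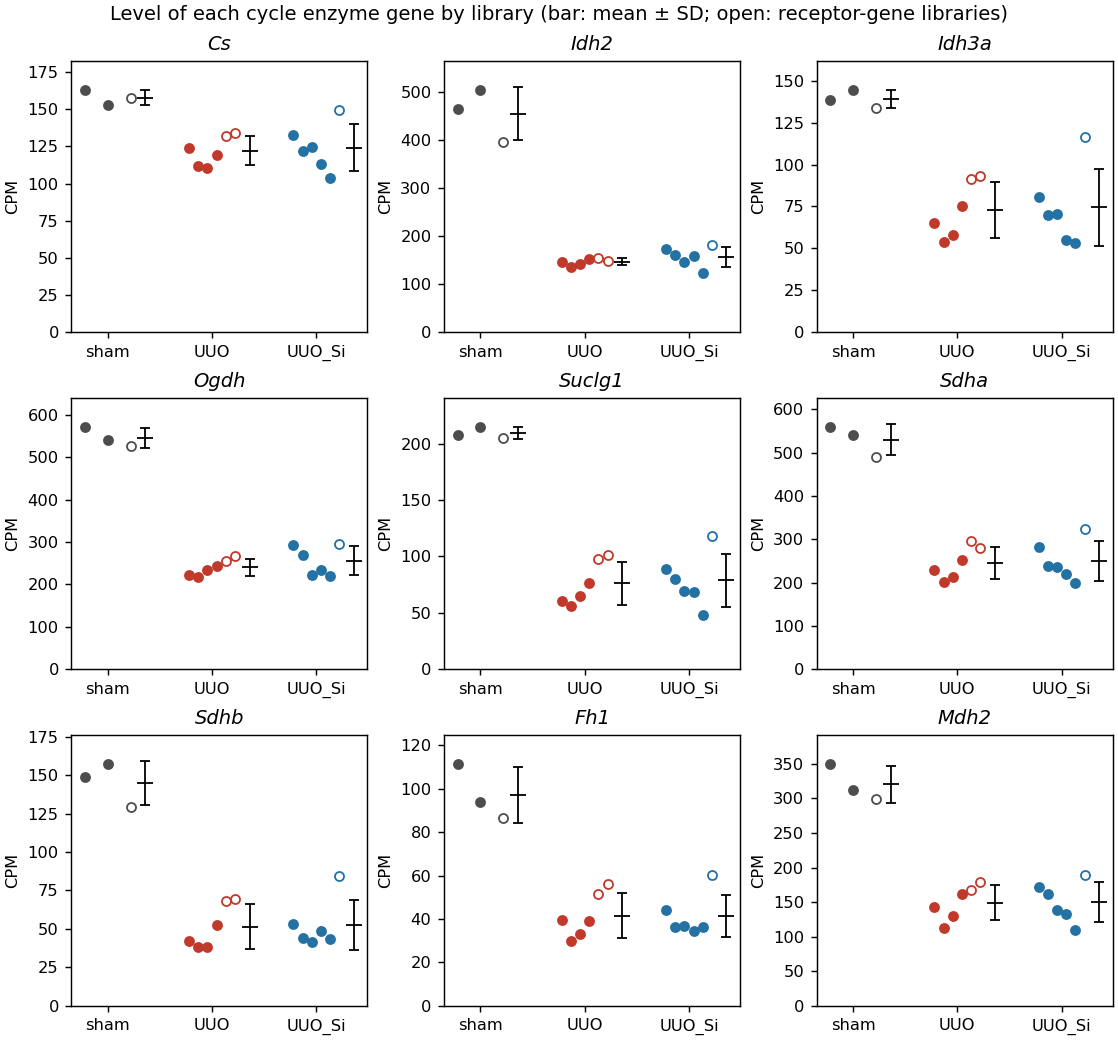
Level of each of the 9 cycle genes in every library, in CPM on axes that start at 0, for sham (grey, n = 3), UUO (red, n = 6) and UUO_Si (blue, n = 6). Bars give mean ± SD and open circles are the 4 receptor-gene libraries. In each panel the sham libraries lie above all UUO and all UUO_Si libraries, and the obstructed groups overlap.

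At the entry of the cycle, Cs (GRCm38 chromosome 10, 128337734 to 128362479) was at 163, 153 and 157 CPM in sham. UUO libraries ran from 111 to 134 CPM with a median of 122. The log2 fold change of -0.37 ± 0.10 (SE) had an adjusted p of 0.00602 in the edgeR fit. The gap between the lowest sham and the highest UUO library was narrow, and no other member fell so little. The deposited counts of Cs were not whole in 3 of 15 libraries and those of Ogdh in 14 of 15, so part of their reads may have been divided, whereas the other 7 members had whole counts throughout.

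At the isocitrate step, Idh2 (chromosome 7, 80094846 to 80115392) was at 464, 504 and 396 CPM in sham. In UUO it ran from 136 to 154 CPM with a median of 147, a log2 fold change of -1.63 ± 0.11 with adjusted p = 1.74e-09 by edgeR. The 6 UUO libraries were close together, with a coefficient of variation of 4.68%, while sham varied by 12.1%. Idh3a (chromosome 9, 54586334 to 54604661) was at 138, 144 and 134 CPM in sham and at 53.8 to 93.3 CPM in UUO (median 70.2). Its log2 fold change was -0.93 ± 0.21 (adjusted p = 0.00128 in the edgeR fit). Unlike Idh2, Idh3a was nearly alike in the sham libraries (coefficient of variation 3.82%) and spread widely in UUO (23.0%).

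RefSeq promoter sequences (GRCm38.p6) matched 8 of the 9 members, and those of Idh2 and Cs are shown because these genes marked the ends of the range of falls. Each is the 250 bases before the start annotated in RefSeq, 5′ to 3′ on the gene's strand. For Idh2 this start lies inside the gene span given above, so the last bases of its window overlap that span. Capitals mark CCAAT boxes and GC boxes (GGGCGG) on either strand, 2 common promoter motifs that were looked up after the other motifs had given no match. Idh2 lies on the minus strand (chr7:80115351-80115600) and Cs on the plus strand (chr10:128337477-128337726).
Idh2: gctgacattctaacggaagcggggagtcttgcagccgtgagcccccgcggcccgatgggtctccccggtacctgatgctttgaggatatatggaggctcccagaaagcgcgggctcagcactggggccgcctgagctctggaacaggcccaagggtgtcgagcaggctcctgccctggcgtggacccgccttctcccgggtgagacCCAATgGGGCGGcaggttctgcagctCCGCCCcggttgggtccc
Cs: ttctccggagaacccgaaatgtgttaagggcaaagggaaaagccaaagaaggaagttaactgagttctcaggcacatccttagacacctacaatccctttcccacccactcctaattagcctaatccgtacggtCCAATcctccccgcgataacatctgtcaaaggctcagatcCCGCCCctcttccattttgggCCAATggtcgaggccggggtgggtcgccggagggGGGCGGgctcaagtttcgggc
Idh2 held 1 CCAAT box and Cs held 2, and each held 2 GC boxes. Of the 8 members 6 held a CCAAT box, against 33.8% of the 32536 distinct windows of this length in the table, and 5 a GC box, against 33.0%. Ogdh had 6 entries, of which only the farthest upstream was searched, whereas the shares over all windows count each distinct entry. No member window that was searched held the other motifs on either strand. These were the oestrogen-related receptor element TCAAGGTCA (0.375% of all windows), its looser form TNAAGGTCA, which includes it (1.13%), the NRF1 palindrome (0.784%), ACTTCCGG for GABPA (2.90%) and AAGATGGCG for YY1 (0.609%). A missing match says only that these letters are not in this window.

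At the next steps, Ogdh (chromosome 11, 6291633 to 6356642) was at 571, 541 and 525.5 CPM in sham. UUO libraries ran from 218 to 266 CPM (median 239), a log2 fold change of -1.19 ± 0.11 (adjusted p = 6.27e-08 by edgeR). Both groups were tight, and the gap between them was wider than either group's range. Suclg1 (chromosome 6, 73248382 to 73276911) was at 208, 215 and 205 CPM in sham and at 56.1 to 101 CPM in UUO (median 70.6). It changed by -1.46 ± 0.22 (log2), adjusted p = 2.23e-05 in the edgeR fit. UUO replicates 5 and 6, at 97.5 and 101 CPM, lay above the other 4 UUO libraries, which ended at 76.4 CPM.

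Succinate dehydrogenase fell in both of the subunits among the members. Sdha (chromosome 13, 74322254 to 74350280) was at 560, 541 and 489.5 CPM in sham and at 202 to 295 CPM in UUO (median 239), a log2 fold change of -1.11 ± 0.14 with adjusted p = 4.27e-06 by edgeR. Sdhb (chromosome 4, 140961203 to 140979193) was at 149, 158 and 129.6 CPM in sham and at 38.3 to 69.4 CPM in UUO (median 47.3). The log2 fold change of Sdhb was -1.49 ± 0.22 (adjusted p = 2.16e-05 in the edgeR fit). For Sdhb too, UUO replicates 5 and 6 (68.4 and 69.4 CPM) were the highest of their group.

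The last members closed the cycle at similar folds. Fh1 (chromosome 1, 175600374 to 175625635) was at 112, 93.8 and 86.6 CPM in sham and at 29.96 to 56.1 CPM in UUO (median 39.2), with a log2 fold change of -1.23 ± 0.19 and adjusted p = 4.00e-05 by edgeR. Mdh2 (chromosome 5, 135778480 to 135790398) was at 350.3, 311 and 299.7 CPM in sham. In UUO it ran from 112 to 179 CPM (median 153), a log2 fold change of -1.11 ± 0.16 with adjusted p = 1.26e-05 in the edgeR fit. Fh1 lay at the lowest level of the members and Mdh2 at an intermediate one, yet their fold changes differed by less than their standard errors.

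Per length, the order of the members' means differed between sham and UUO. On the scale of CPM per kb of exon (GENCODE M21), sham levels were 176 ± 21.2 for Idh2 (SD, n = 3), 128 ± 8.82 for Sdha, 100.04 ± 4.29 for Ogdh, 89.98 ± 7.44 for Mdh2, 64.9 ± 6.39 for Sdhb and 45.4 ± 1.11 for Suclg1. Fh1 (28.7 ± 3.80), Idh3a (27.4 ± 1.04) and Cs (27.3 ± 0.86) followed. In sham the ranges of Ogdh and Mdh2 overlapped, as did those of Fh1, Idh3a and Cs, and all other neighbours were apart. In UUO, Sdha (59.4 ± 9.09, n = 6) and Idh2 (56.7 ± 2.66) overlapped at the top, Ogdh (43.95 ± 3.50) overlapped Mdh2 (41.8 ± 7.09), and Cs (21.1 ± 1.71) stood between Sdhb (23.0 ± 6.44) and Suclg1 (16.5 ± 4.20). Idh3a (14.4 ± 3.30) and Fh1 (12.2 ± 3.03) had the lowest means in UUO. From Sdhb through Cs, Suclg1 and Idh3a to Fh1 each UUO range overlapped the next, so these ranks were not separated, and Idh2 no longer stood clear of Sdha.

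Other subunits and enzymes of the cycle moved the same way, and 8 of 9 fell, with a median of -1.12. Idh3b (-1.28) and Idh3g (-1.04), the regulatory partners of Idh3a, and Dlst (-1.27) and Dld (-1.12), which complete the complex of Ogdh, also fell. Of the beta subunits that pair with Suclg1, Suclg2 (GDP-forming) fell by 1.21 and Sucla2 (ADP-forming) by 0.71. Of the membrane anchors of complex II, Sdhc fell by 0.87 ± 0.21 and Sdhd, at -0.38 ± 0.23, did not pass (adjusted p = 0.171 by edgeR). Within complex II the log2 fold changes thus ran from -1.49 for Sdhb to -0.38 for Sdhd.

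**Figure D2:**
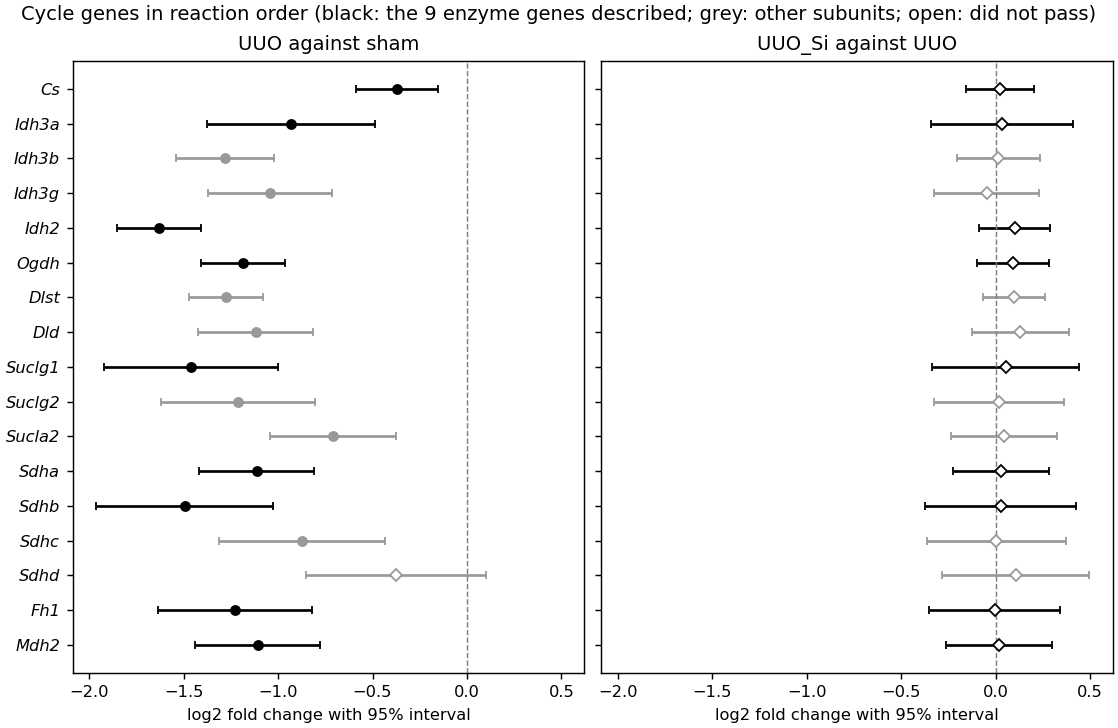
Log2 fold change with its 95% interval for the 9 members and other subunits of the cycle in reaction order, UUO against sham on the left and UUO_Si against UUO on the right. Black marks are the 9 members, grey marks the other subunits drawn, and open diamonds did not pass. On the left Sdhd is the only gene drawn that did not pass, and on the right all intervals drawn include 0.

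Genes that feed the cycle fell with it. Of 14 genes of pyruvate entry 11 fell and Pdp1, a phosphatase that activates pyruvate dehydrogenase, rose (0.84 ± 0.14). The largest falls were Pcx (-4.09 ± 0.42), which makes oxaloacetate from pyruvate, Pdp2 (-1.89) and the kinase Pdk2 (-1.30). Among 14 tested genes for entry and exit of cycle carbon 11 fell and 3 rose. Pck1, the cytosolic phosphoenolpyruvate carboxykinase of gluconeogenesis, fell by 5.68 ± 0.40, Abat by 2.59 and Pcca by 1.81, whereas Me2 (1.20 ± 0.18), a mitochondrial malic enzyme, and Pck2 (0.78 ± 0.11), the mitochondrial counterpart of Pck1, rose. Me3, the other mitochondrial malic enzyme, named after its value was seen, fell by 1.06 ± 0.12. Acod1, which was on this list, was absent from the deposited gene symbols under this name and could not be tested.

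All 5 cytosolic counterparts fell, namely Mdh1 (-2.14 ± 0.22), Me1 (-1.50), Aco1 (-1.19), Idh1 (-0.92 ± 0.24) and Acly (-0.41 ± 0.14), which cleaves citrate. Carriers of cycle intermediates fell in 6 of 7, led by Slc25a10, the dicarboxylate carrier (-2.52 ± 0.16), and the citrate carrier Slc25a1 was at 0.08 and did not pass. Of 9 assembly and cofactor genes 3 fell, Sirt3 (-2.21 ± 0.14), a matrix deacetylase, Lipt1 (-0.74) and Sirt5 (-0.65). The complex II assembly factors Sdhaf1 (-0.11), Sdhaf2 (0.17), Sdhaf3 (-0.19) and Sdhaf4 (0.11), named after their values were seen, did not pass.

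All 13 electron transport genes of a reference list fell (median -1.32). Of 16 genes of import, folding and outer membrane 11 fell and 2 rose (median -0.83), with Hspd1 (-1.49), Hspe1 (-1.35) and Phb (-1.21) lower and Vdac3 (0.49) and Tomm20 (0.46) higher. Among 12 regulators 7 fell, namely Esrrb (-2.85), Ppara (-2.84), Hnf4a (-2.79), Ppargc1a (-2.14), Ppargc1b (-1.88), Esrra (-1.48) and Esrrg (-0.79). Nrf1 (-0.07), Gabpa (0.09), Gabpb1 (-0.20), Tfam (-0.03) and Yy1 (-0.11) did not pass. For these lists, 27.5% of all genes tested were higher and 26.4% lower by the same rule.

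**Figure D3:**
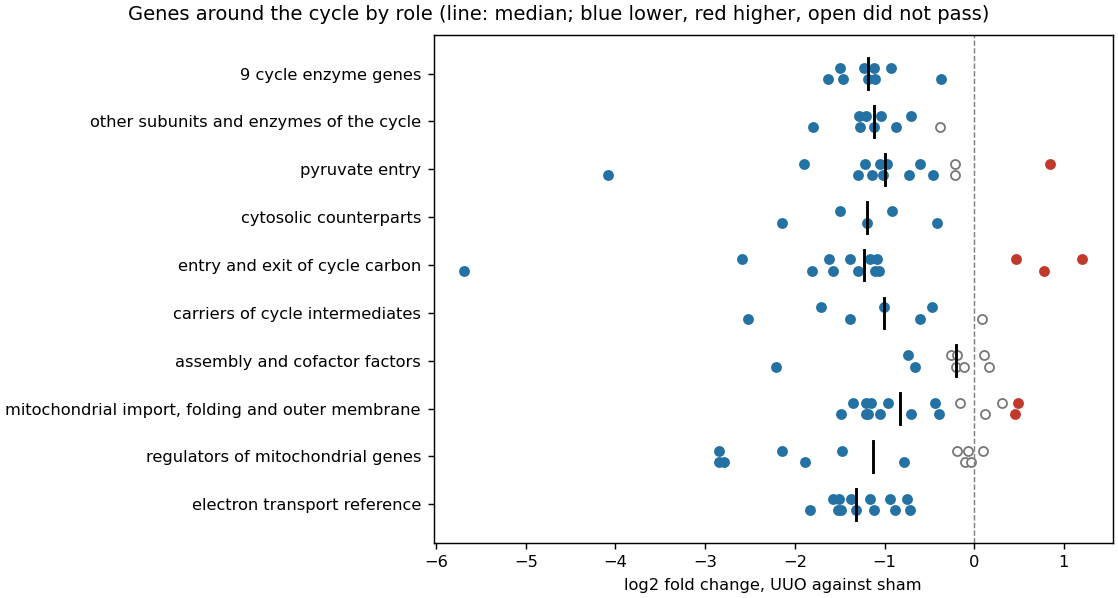
Log2 fold change of UUO against sham (x axis) for each tested gene of the 9 members and of 9 lists of related genes (rows). Blue points fell, red points rose, open points did not pass, and the black line is the median of the list. Medians lie between -1.32 (electron transport) and -0.20 (assembly and cofactor factors), and the members' median is -1.19.

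Cell type markers moved with these falls. Of 14 proximal tubule markers 13 fell (median -4.38), as did 7 of 8 markers of the thick ascending limb and distal convoluted tubule (-1.98) and 7 of 8 of the collecting duct (-1.61). Summed levels of 8 fibroblast markers were 354 to 523 CPM in sham and 5582 to 10510 CPM in UUO, and those of 10 macrophage and monocyte markers 123 to 186 and 1008 to 1301 CPM. All 8 and all 10 of these rose, as did 7 of 7 injured tubule markers. The proximal tubule marker Slc22a30 was at 0 in 2 of 15 libraries. Rn45s, a ribosomal RNA precursor, took 3.67% to 4.39% of sham counts. Its share was lower in each UUO library (2.07% to 3.26%), while the UUO_Si range (2.13% to 4.45%) overlapped sham. The part of these shifts in the falls of the members was not tested.

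Ratios of transcripts within a library were compared for 8 pairs, which removes the scaling between libraries. A ratio of CPM depends on the lengths of both transcripts, so only its change between groups was read. Mdh2 over Mdh1, mitochondrial over cytosolic malate dehydrogenase, was 0.558 to 0.566 in the 3 sham libraries and 0.996 to 1.28 in UUO. The direction of this ratio followed from Mdh1 falling more than Mdh2. Idh2 over Idh3a was 2.95 to 3.49 in sham and 1.59 to 2.52 in UUO, and Idh2 over Idh1 was 1.88 to 2.07 and 0.805 to 1.87, with the highest UUO library just under the lowest sham library. Suclg1 over Sucla2 was 2.14 to 2.25 in sham and 1.15 to 1.42 in UUO, and Sdha over Sdhb was 3.43 to 3.77 and 4.03 to 5.52.

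These 5 ratios did not overlap between UUO and sham, and each had p = 0.0238 in a two-sided exact permutation test, the smallest that 3 against 6 libraries allow. After adjustment over 16 tests p was 0.0762 for each, so no ratio passed. With only 5 ratios at this smallest p, none of them could pass, however large its change. Idh3a over Idh3b (0.613 to 0.697 in sham, 0.635 to 0.973 in UUO; exact permutation p = 0.0476, adjusted p = 0.127) and Ogdh over Dlst (1.61 to 1.84 and 1.72 to 1.87; exact permutation p = 0.167, adjusted p = 0.381) overlapped. Cs over Acly was 0.612 to 0.780 in sham and 0.669 to 0.739 in UUO, with a difference of 0.04 on the log2 scale (exact permutation p = 0.619, adjusted p = 0.860). Without sham replicate 2 this difference was -0.045. The receptor-gene libraries moved several ratios: Idh2 over Idh1 was 0.901 and 0.805 in UUO replicates 5 and 6 against 1.45 to 1.87 in the other 4 UUO libraries. Without all 4 of them its difference from sham was -0.34 in place of -0.63, and that of Sdha over Sdhb was 0.54 in place of 0.41.

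**Figure D4:**
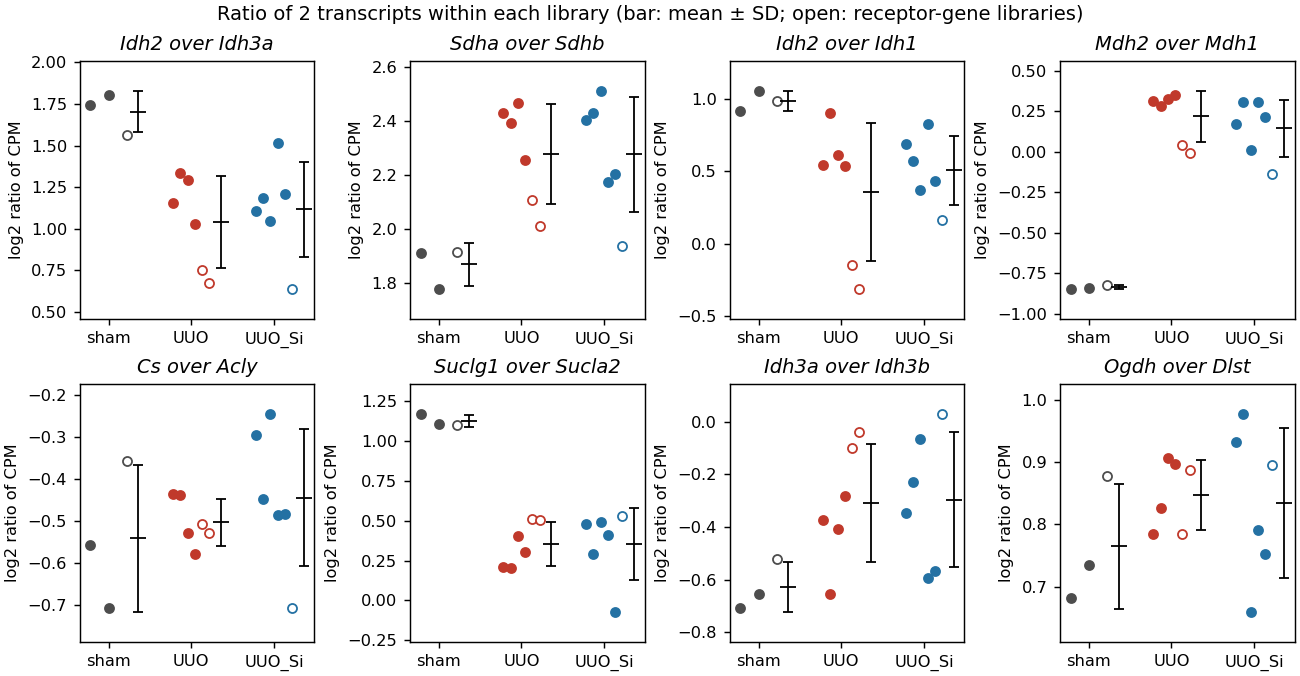
Log2 ratio of the CPM of 2 transcripts within each library for 8 pairs, by group (n = 3, 6 and 6), with mean ± SD as bars and the receptor-gene libraries as open circles. Axes do not start at 0. Mdh2 over Mdh1 and Suclg1 over Sucla2 show the widest gaps between sham and the obstructed groups, which overlap in all 8 panels.

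No member passed the test between the diets in the obstructed kidney. Compared with UUO, log2 fold changes in UUO_Si ran from -0.01 for Fh1 to 0.10 for Idh2, with a median of 0.03, and no gene of the 16752 tested passed (0% called, with 626 at an unadjusted p under 0.05 in the edgeR fit and 2 genes passing in DESeq2). Idh2 was at 124 to 182 CPM in UUO_Si (median 159) against 136 to 154 CPM in UUO, a difference of 0.10 with a 95% interval of -0.09 to 0.29. Ogdh was at 219 to 294 CPM (median 251) against 218 to 266, a difference of 0.09 (-0.10 to 0.28). Cs was at 104 to 149 CPM (median 123) against 111 to 134, a difference of 0.02 (-0.15 to 0.20). For these 3 genes the interval leaves out changes of more than 0.29 in either direction on the log2 scale.

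The other members were measured less precisely. The 95% interval was -0.34 to 0.44 for Suclg1, -0.37 to 0.43 for Sdhb, -0.34 to 0.41 for Idh3a and -0.35 to 0.34 for Fh1, and -0.23 to 0.28 for Sdha and -0.26 to 0.30 for Mdh2. UUO_Si levels were 48.4 to 118 CPM for Suclg1 (median 74.6), 41.3 to 84.3 CPM for Sdhb (46.2) and 53.5 to 117 CPM for Idh3a (70.4). They were 34.4 to 60.1 CPM for Fh1 (median 36.5), 199.9 to 323 CPM for Sdha (237) and 109 to 189 CPM for Mdh2 (150.1). In each case the UUO_Si range overlapped the UUO range. UUO_Si replicate 6 was the highest library of its group for all 9 members, and without it the values of Cs (-0.036), Idh3a (-0.14), Suclg1 (-0.10), Sdha (-0.061), Sdhb (-0.17) and Mdh2 (-0.060) lay below 0, as did that of Fh1 (-0.15), none of them passing. That removal left the receptor-gene libraries of UUO in place. Without all 4 receptor-gene libraries all 9 members lay above 0, from 0.03 for Cs to 0.14 for Suclg1, and none passed.

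No pathway list held a gene that passed between the diets. List medians lay between -0.01 for assembly and cofactor genes and 0.12 for carriers. No marker list held one either. At an unadjusted p under 0.05 by edgeR were 7 of 8 fibroblast (median -0.55), 5 of 5 erythroid (-1.23) and 3 of 5 urothelial markers (-1.01). So were 4 of 8 of the thick ascending limb and distal convoluted tubule (0.38) and 3 of 8 of the collecting duct (0.18). Of all 16752 genes tested, 626 were under this cut. The erythroid markers Hba-a1 and Hba-a2 had equal values, so they are not separate measurements. Summed fibroblast markers were 4761 to 6727 CPM in UUO_Si against 5582 to 10510 in UUO. UUO replicates 4, 5 and 6 held 10279, 10510 and 9401 CPM. Summed erythroid markers, Hba-a1 and Hba-a2 both included, were 201, 274 and 257 CPM in the same libraries. They were 53.3 to 67.9 CPM in the other UUO libraries and 36.4 to 121 CPM in UUO_Si. Without the 4 receptor-gene libraries the fibroblast median was -0.36. The part of these markers was not tested. None of the 8 ratios passed (adjusted p from 0.790 to 1, exact permutation), and Sdha over Sdhb was 3.83 to 5.70 in UUO_Si against 4.03 to 5.52 in UUO. No code series held both diets, so splitting by code does not separate code from diet. Between the RM3 libraries of UUO (n = 4) and the RM4 libraries of UUO_Si (n = 5), Sdhb was at 38.3 to 52.4 against 41.3 to 53.2 CPM. Suclg1 was at 56.1 to 76.4 against 48.4 to 88.8 CPM. In the RM6 libraries of UUO (n = 2) and the RM7 library of UUO_Si, Sdhb was at 68.4 and 69.4 against 84.3 CPM and Suclg1 at 97.5 and 101 against 118 CPM.

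Against sham, UUO_Si showed the same falls, with 9 of 9 members lower (25.5% of all genes tested were lower) and without overlap (21.8% of all genes). These values share the sham libraries with the first comparison, and the groups differed in operation and diet together. Log2 fold changes were -1.53 for Idh2, -1.47 for Sdhb, -1.41 for Suclg1, -1.23 for Fh1, -1.10 for Ogdh, -1.09 for Mdh2 and for Sdha, -0.90 for Idh3a and -0.34 for Cs, next to -1.63, -1.49, -1.46, -1.23, -1.19, -1.11, -1.11, -0.93 and -0.37 for UUO. Cs was closest to the threshold, with adjusted p = 0.00995 by edgeR for UUO_Si, and without sham replicate 1 this became 0.0533 at a log2 fold change of -0.31.

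Within the obstructed groups the members varied together from library to library. After each group's mean was taken away, Pearson correlations between members over the 12 obstructed libraries ran from 0.59 (Idh2 with Fh1) to 0.98 (Idh3a with Sdha), with a median of 0.88 over 36 pairs. Without the 3 obstructed receptor-gene libraries they ran from 0.43 (Cs with Sdhb) to 0.96, with a median of 0.79 (n = 9). These libraries share depth, composition and scaling across genes, so the values are given as a description. UUO_Si replicate 6, UUO replicate 6 and UUO replicate 5 were the highest for the mean of the members relative to their groups, and UUO_Si replicate 5 and UUO replicate 2 the lowest.

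The size of this variation differed among the members. In UUO the coefficient of variation was 4.68% for Idh2, 7.97% for Ogdh and 8.11% for Cs, but 23.0% for Idh3a, 24.7% for Fh1, 25.5% for Suclg1 and 28.0% for Sdhb. For these 4 genes the 3 obstructed receptor-gene libraries lay above all other 9 obstructed libraries. The share of all genes tested for which this held was not counted, so it cannot be called particular to these genes. Sdhb was at 68.4 to 84.3 CPM there against 38.3 to 53.2, Suclg1 at 97.5 to 118 against 48.4 to 88.8, Idh3a at 91.2 to 117 against 53.5 to 80.8 and Fh1 at 51.6 to 60.1 against 29.96 to 43.96 CPM. Cs, Idh2, Ogdh, Sdha and Mdh2 overlapped between both sets. Sham replicate 3, the receptor-gene library without obstruction, was the lowest sham library for 8 members and lay between the others for Cs.

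**Figure D5:**
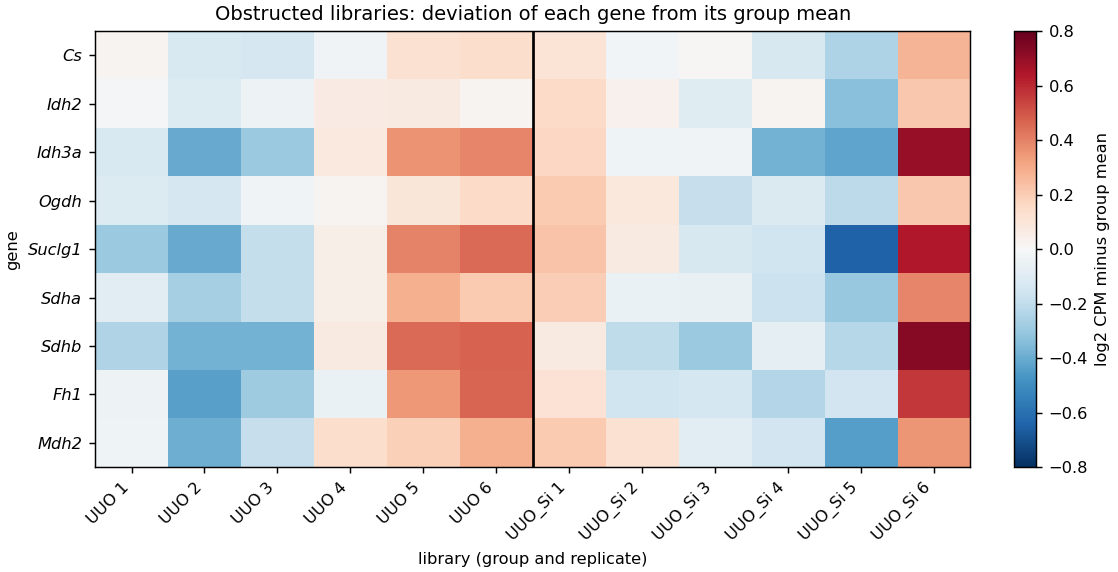
Log2 CPM of each member minus the mean of its group, for the 6 UUO (left) and 6 UUO_Si libraries (right), with red above and blue below the mean. UUO replicates 5 and 6 and UUO_Si replicate 6 are red for all 9 genes, and the colours of Idh2, Ogdh and Cs are paler than those of Idh3a, Suclg1, Sdhb and Fh1.

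The same 3 libraries differed in some other measures. Summed injured tubule markers were 11692 to 12820 CPM there and 5004 to 9591 CPM in the other obstructed libraries. Proximal tubule markers overlapped, at 1670 to 2265 against 768 to 1857 CPM. Of the fat and muscle markers Ucp1, Adipoq and Myh4 passed the filter, and their sum was 6.53 to 38.5 against 0 to 1.79 CPM. Sham replicate 2, not a receptor-gene library, was at 7.83 CPM for this sum. The muscle gene Ckm, left out by the filter, was at 0 in 11 of 15 libraries. Fibroblast markers overlapped. The Rn45s share overlapped too, at 2.07% to 2.40% in the 3 libraries against 2.07% to 4.45% in the other obstructed ones. Their part in the higher member levels was not tested. Without all 4 receptor-gene libraries the 9 members still fell in UUO against sham, with a median log2 fold change of -1.29, and Sdhb (-1.83) and Fh1 (-1.53) were further from 0 than with all libraries.

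Genes most like the members were ranked by Pearson correlation with their mean standardised level over the 12 obstructed libraries, groups centred, among 12898 genes with at least 5 CPM. The 5 highest were Pdha1 (0.99), the E1 subunit of pyruvate dehydrogenase, Slc25a5 (0.99), a carrier that exchanges ADP and ATP, Smim10l1 (0.99), the ribosomal protein gene Rpl35a (0.99) and Suclg2 (0.99), the partner of Suclg1. The most opposed were Rtel1 (-0.99), a DNA helicase, Morc2a (-0.99), 4933409K07Rik (-0.98), 2210018M11Rik (-0.98) and Trip11 (-0.98). Correlations above 0.9 were found for 796 genes (6.17%) and below -0.9 for 839 (6.50%), so such values were common in these libraries. Of the 5 most alike, Pdha1 (-1.01), Slc25a5 (-1.60) and Suclg2 (-1.21) fell in UUO against sham, whereas Smim10l1 (0.17) and Rpl35a (-0.02) did not pass.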

How the data were processed

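The deposited table held expected counts per gene symbol, that is, reads with fractions and no scaling, judged from the values, of which 79.0% to 83.0% per library were whole. Per the submitters' processing notes the build was mm10 and the tools named were TopHat2 2.1.1 and Cuffdiff 2.2.1. Counter, annotation and strand setting are not given in the sources used here. Libraries came from total RNA with a SMARTer stranded Pico kit, per the labels. No member shared exon bases with another GENCODE M21 gene.

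Counts were rounded, filtered with edgeR's filterByExpr (minimum count 10; 16752 genes left) and scaled with TMM. All 15 libraries entered a single edgeR 4.0.16 quasi-likelihood fit (R 4.3.3) with a mean per group. P values were adjusted over all genes tested (Benjamini-Hochberg) and called at 0.05. Standard errors were derived from the F statistic and 95% intervals from its degrees of freedom. Log2 levels used a prior count of 2. Ratios of CPM were compared with exact permutation tests. Alternatives were RLE and upper-quartile scaling, other filters, DESeq2 1.42.0, limma-voom (limma 3.58.1), fewer libraries, added terms and a replicate block. The fit was tested on simulated counts in which few genes changed and no library stood apart. This does not cover the wide shift against sham or the receptor-gene libraries.

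The members, lists and pairs were chosen with earlier results of these data known. Text names all members and cytosolic, regulatory and cycle genes, and of other lists up to 3 genes per direction with the largest changes. Some genes counted in the lists are not reported here by name. The labels do not say that replicates were separate animals, so the p values cover only sample-to-sample spread, which may be technical. No 2 libraries were copies (at most 4.02% of tested genes had equal counts).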

Additional observations from a re-analysis of the deposited data

Results flagged for a closer look

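Of 34 sets of 6 libraries checked (9 member levels and 8 ratios in each obstructed group), 2 held a library whose gap to its neighbour was large for the range of its group. Sdhb was at 84.3 CPM in UUO_Si replicate 6, against 53.2 CPM in the next highest UUO_Si library. Fh1 was at 60.1 CPM in the same library, against 43.96 CPM in the next. By chance about 1 in 20 such sets is expected to be picked out. UUO_Si replicate 6 is a receptor-gene library, with the values of the other markers given above, and their part in these levels was not tested.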

How the results depend on the processing

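Over 12 alternatives all 9 members stayed lower in UUO and in UUO_Si than in sham and passed (highest adjusted p = 0.0336), and log2 fold changes against sham ran from -1.83 to -0.28. With each library left out in turn all kept their direction, and all calls held in UUO, while in UUO_Si Cs no longer passed once sham replicate 1 was dropped (-0.31; edgeR adjusted p = 0.0533). Between the diets no member passed under any of them. DESeq2 called 2 genes of the whole table where edgeR called 0. Fh1 changed sign to 0.021 with limma-voom, 0.082 without the 4 receptor-gene libraries, 0.073 with a term for them and 0.082 with only the RM1, RM3 and RM4 libraries. Leaving out each library moved the diet differences across 0, with ranges of -0.036 to 0.071 for Cs, -0.14 to 0.11 for Idh3a, -0.10 to 0.16 for Suclg1, -0.061 to 0.089 for Sdha, -0.17 to 0.12 for Sdhb, -0.15 to 0.093 for Fh1 and -0.060 to 0.094 for Mdh2. The cause was not tested.

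Diet differences in log2 ratios did so too: -0.0023 to 0.17 for Idh2 over Idh3a, -0.053 to 0.067 for Sdha over Sdhb, -0.035 to 0.086 for Suclg1 over Sucla2, -0.056 to 0.073 for Idh3a over Idh3b and -0.042 to 0.022 for Ogdh over Dlst. Idh2 over Idh1 was at -0.071 without the 4 receptor-gene libraries, and Cs over Acly against sham ran from -0.045 to 0.13. Replicate numbers are not said to pair animals, and deviations of same-numbered libraries correlated at -0.39 to 0.75 (over 0.1 in 6 of 12 pairs). With a replicate block 9 members were lower in UUO (median -1.21) and 8433 genes passed in all, 9 members were lower in UUO_Si (median -1.18), and 0 passed between the diets; no member's call changed. Upper-quartile scaling moved the median of all genes by 0.066 against sham and gave 5034 higher and 3973 lower genes. Members had 290 to 4660 counts per library, fewest for Fh1.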
